A study of Mus musculus with 13 samples.

Results

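Genes of the endoplasmic reticulum (ER) folding and secretory transport machinery were followed in vascular and nonvascular samples of the mouse retina. The set was chosen by gene symbol: every non-control probe whose symbol, read from its RefSeq accession or from its description, began with a name of the signal recognition particle and its receptor, the Sec61 translocon, signal peptidase, the ER chaperones, the protein disulfide isomerases, the COPII and COPI coats, the p24 (Tmed) proteins, the KDEL receptors or the Sec22 proteins. It held 62 genes of 33384 on the array, carried by 104 of 41174 probes. The rule itself used symbols and no measured value. All 62 genes passed the filter on dim probes, as did 31866 genes in all, of which 17329 had a symbol. The set was bright: the median over genes of the mean log2 intensity was 10.1 for the set and 8.10 for all genes with a symbol.

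RNA came from tip samples (n = 6), stalk samples (n = 4) and the nonvascular retina control (n = 3), each on its own array, and the series is on retinal endothelial tip cells, the leading cells of a growing vessel sprout that stalk cells follow. The tip and stalk samples carry no more than those words in the labels, and strain, age, pooling, the way the cells were collected and a link from sample to animal are not given in the sources used here. Adjusted p-values therefore measure the spread between these samples, which may in part be technical. Every sample was labelled with Cy5 and hybridised with no dye swap against the same Cy3-labelled Universal Mouse Reference RNA, a commercial RNA pool. A level below is the log2 ratio of sample to reference and has meaning only between samples for 1 gene. A difference is the difference of 2 group means of that log2 ratio, given with its standard error (SE) from limma, and a gene is called higher or lower where its Benjamini-Hochberg adjusted p from limma over all 31866 genes is under 0.05.

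On the arrays, 85.0% to 95.4% of spots exceeded background clearly in the sample channel, and the median sample signal over background was 105 to 292 on tip arrays, 98.1 to 141 on stalk arrays and 166 to 282 on nonvascular arrays. The groups were scanned one after the other, so the group and its place in the scan order cannot be told apart. Among marker genes, 7 of 8 endothelial genes were higher in tip than in nonvascular samples and 6 of 8 in stalk than in nonvascular samples, with a mean log2 ratio over the list of 2.74 to 3.08 on tip arrays, 3.20 to 3.42 on stalk arrays and 0.54 to 0.86 on nonvascular arrays. Genes of pericytes and smooth muscle followed the same order, with 1.43 to 1.81, 2.39 to 2.57 and -0.55 to -0.33. Ganglion cell genes ran the other way, with 0.39 to 0.75, -0.32 to 0.63 and 2.33 to 2.61. Markers of Mueller glia were higher too, 5 of 6 in tip and 4 of 6 in stalk, with mean log2 ratios of 2.69 to 3.04 on tip arrays and 2.82 to 3.00 on stalk arrays. On the nonvascular arrays they ran from 0.71 to 2.42, the highest on nonvascular replicate 3, which also stood apart for astrocyte genes (1.33, against 0.12 and 0.27 on the others), of which 3 of 6 were higher in tip and 2 of 6 in stalk. Of the erythroid genes, 2 of 3 tested were higher in tip and 1 in stalk. Of 8 amacrine, horizontal and bipolar genes 3 were lower and 1 higher in both, and of 8 microglia and macrophage genes 3 were lower in tip and 2 in stalk. Of 8 photoreceptor genes, too, 3 were lower in tip and 2 in stalk. Every gene of the endothelial, pericyte and smooth muscle, and ganglion cell lists was well above background on all tip and stalk arrays. The same held for all 8 amacrine, horizontal and bipolar genes and for 6 of 8 photoreceptor genes. All 8 endothelial genes also passed on every nonvascular array. Since 85.0% to 95.4% of all spots did so, this flag does not show which cells a sample held. In bulk samples such as these, fewer cells of a type and less RNA per cell cannot be told apart.

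Secreted and membrane proteins enter the ER while they are being made. The signal recognition particle brings the ribosome to the membrane, the Sec61 channel threads the chain across, and signal peptidase cuts off the signal. Hspa5 (BiP), Hsp90b1 (GRP94) and the lectin chaperones Calr and Canx hold the chain while disulfide isomerases join its cysteines. COPII vesicles then carry folded cargo to the Golgi, with p24 proteins among the cargo receptors, and COPI vesicles with the KDEL receptors bring escaped ER residents back. Endothelial cells use this route for collagens and other basement membrane proteins, adhesion molecules and receptors. When unfolded protein accumulates, the transcription factors ATF6 and XBP1 raise many of these genes through the ER stress response element (ERSE) and related promoter sequences.

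Promoter windows of the genes were therefore read for such sequences, and those that hold the full ERSE are shown because the levels of all 6 genes are given below. RefSeq promoters (build GRCm38.p6, 250 bases before to 50 after the start) were in the table for 54 of the 62 genes, as 56 promoters, and both strands were searched. The ERSE was written as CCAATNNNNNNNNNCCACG, which contains the CCAAT and CCACG boxes. It lay in 6 of the 56 promoters (10.7%), against 39 of all 32851 promoters (0.119%). Many of these genes are known to be raised through this element, as said above, so the contrast is not an independent result. In the lines that follow, read 5′ to 3′ on the strand of the gene, capitals mark the match, which for Calr and the second Hsp90b1 line is on the opposite strand.
Hspa5, chr2:34772005-34772063, plus strand: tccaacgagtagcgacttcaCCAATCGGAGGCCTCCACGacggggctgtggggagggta
Calr, chr8:84847055-84847113, minus strand: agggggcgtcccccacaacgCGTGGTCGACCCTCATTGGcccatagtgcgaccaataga
Hsp90b1, chr10:86705618-86705676, minus strand: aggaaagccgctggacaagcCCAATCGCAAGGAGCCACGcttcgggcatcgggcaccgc
Hsp90b1, chr10:86705513-86705571, minus strand: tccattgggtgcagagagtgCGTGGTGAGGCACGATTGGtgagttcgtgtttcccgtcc
Canx, chr11:50325780-50325838, minus strand: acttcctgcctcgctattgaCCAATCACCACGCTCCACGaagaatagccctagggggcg
Pdia6, chr12:17266471-17266529, plus strand: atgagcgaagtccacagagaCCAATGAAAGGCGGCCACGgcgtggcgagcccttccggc
Dnajc3, chr14:118937807-118937865, plus strand: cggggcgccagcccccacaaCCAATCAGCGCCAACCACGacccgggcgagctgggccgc
The match in Hspa5 ended 47 bases before the start and the one in Calr 144 bases before it. The core of a second unfolded protein element, TGACGTGG, which contains the hypoxia core ACGTG, lay in 5 of the 56 promoters (8.93%) and in 0.676% of all promoters. It is shown for Kdelr3 and Sec24d, whose levels are given below.
Kdelr3, chr15:79516358-79516405, plus strand, match on the opposite strand: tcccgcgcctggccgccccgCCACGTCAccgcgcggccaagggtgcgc
Sec24d, chr3:123267450-123267495, plus strand: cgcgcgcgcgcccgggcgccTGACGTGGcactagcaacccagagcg
The other genes with this core were Copb1, Copb2 and Sec23a. The related element ERSE-II (ATTGGNCCACG) was in none of the 56 promoters and in 0.0365% of all. The shorter boxes were common: ACGTG lay in 58.9% of the set's promoters and 19.6% of all, CCACG in 69.6% and 32.8%, and CCAAT in 51.8% and 37.4%. A match describes the letters of a window and is not a measured binding site.

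**Figure D1:**
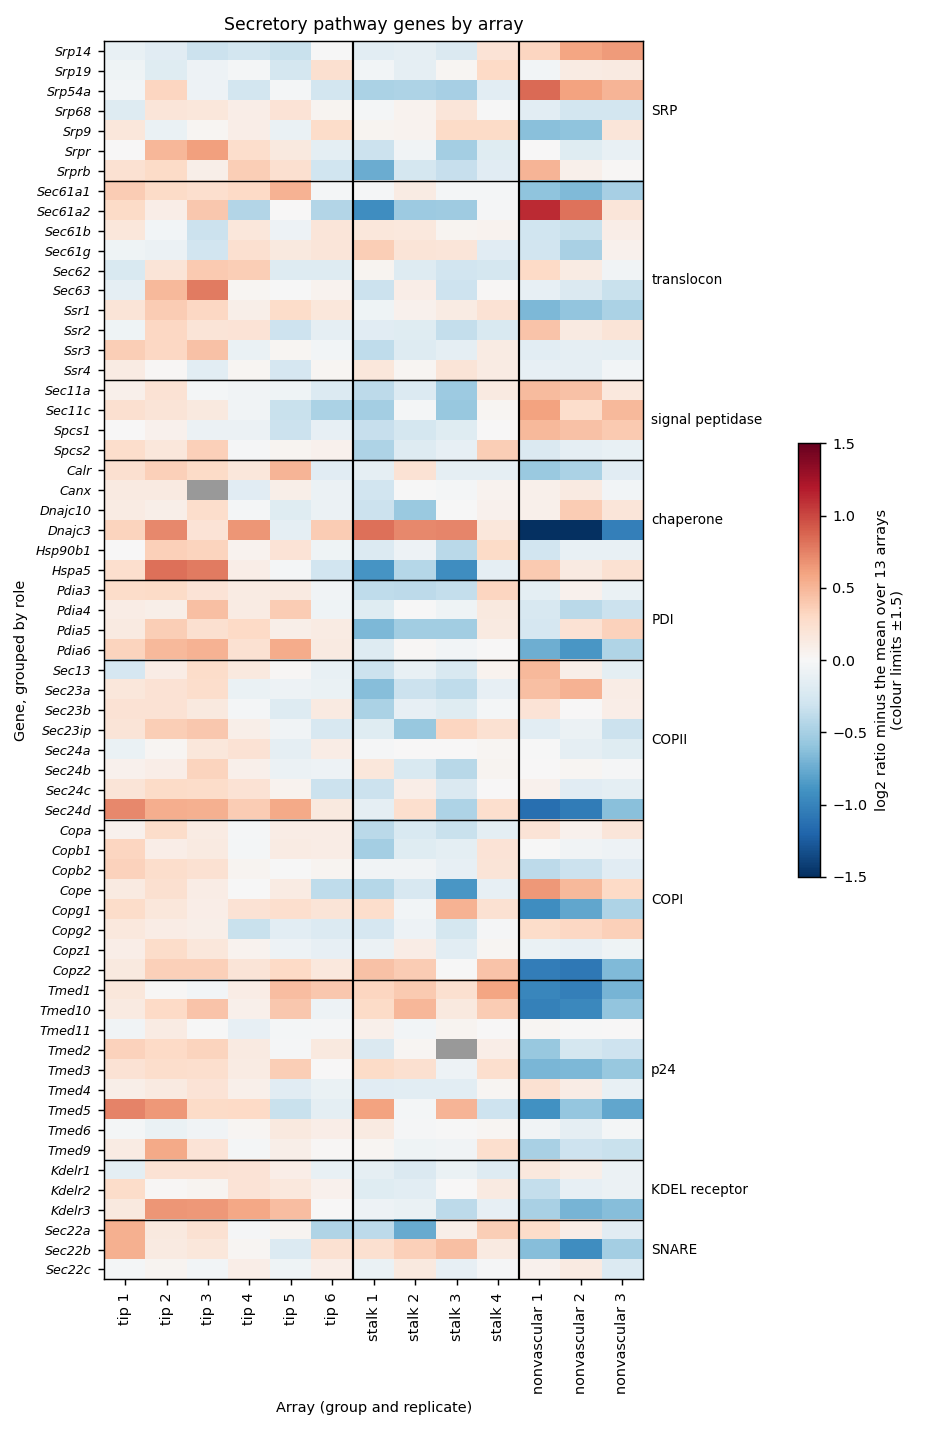
Log2 ratio of each of the 62 genes (rows, grouped by role) on each of the 13 arrays (columns), minus the gene's mean over the arrays, with colours capped at 1.5 and the 2 missing spots in grey. Rows such as Dnajc3, Sec24d, Copz2 and Tmed10 are low on all 3 nonvascular arrays, and Hspa5 varies within the tip and the stalk group as well as between them.

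Between tip and stalk, 3 of the 62 genes were higher in tip: Copa, the alpha subunit of the COPI coat, Kdelr3, a receptor that returns ER residents from the Golgi, and Pdia6, a disulfide isomerase that works with BiP. None was lower by limma's adjusted p, and 21 genes were higher and 1 lower at an unadjusted p under 0.05. Over all genes, 1.47% were called higher and 1.33% lower, and at an unadjusted p under 0.05 10.2% were higher and 7.8% lower. The set was bright, and 6100 genes with a symbol had a brightness within its interquartile range. Of these, 169 were called higher and 190 lower, and 1068 were higher and 776 lower at an unadjusted p under 0.05. Most of the set leaned one way without reaching the threshold. The difference was above 0 for 48 genes, or 77.4%, against 51% of all genes and 53.6% of those 6100 genes. The median difference was 0.20 for the set, 0.00 for all genes and 0.02 for those bright genes.

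Copa ran from 0.66 to 0.96 on the tip arrays, with a median of 0.79. On the stalk arrays it was 0.28, 0.45, 0.35 and 0.54, and on the nonvascular arrays 0.89, 0.74 and 0.87. All 6 tip arrays lay above all 4 stalk arrays, while tip and nonvascular arrays overlapped. The difference of tip minus stalk was 0.39 ± 0.07 (SE), a 1.31-fold higher ratio (adjusted p from limma = 0.00787). The second Copa probe, much dimmer, gave -0.01.

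Kdelr3 ran from -2.20 to -1.54 on the tip arrays, with a median of -1.68. It was -2.28, -2.30, -2.60 and -2.33 on the stalk arrays and -2.69, -2.91 and -2.84 on the nonvascular arrays. The 3 groups did not overlap, with tip highest and nonvascular lowest. Tip exceeded stalk by 0.59 ± 0.13 (SE), or 1.51-fold (adjusted p from limma = 0.0337). The other receptors of the family, Kdelr1 and Kdelr2, differed by 0.24 ± 0.08 and 0.18 ± 0.08 (SE) with adjusted p from limma of 0.148 and 0.262; the difference between the receptors was not tested.

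Pdia6 ran from -1.44 to -1.02 on the tip arrays, with a median of -1.16. Its stalk values were -1.77, -1.55, -1.62 and -1.57, and its nonvascular values -2.30, -2.45 and -2.02. These groups too were separate, in the order tip, stalk, nonvascular. The difference of tip minus stalk was 0.43 ± 0.10 (SE), or 1.35-fold (adjusted p from limma = 0.0401), and the other Pdia6 probes gave 0.42 and 0.05.

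Hspa5, the ER Hsp70 and a common marker of unfolded protein, had the largest difference of the set, 0.87 ± 0.23 (SE) or 1.83-fold, but with an adjusted p from limma of 0.061. Its values ran from -2.76 to -1.64 on the tip arrays, with a median of -2.30. They were -3.36, -2.90, -3.41 and -2.61 on the stalk arrays and -2.08, -2.34 and -2.24 on the nonvascular arrays. Tip and stalk overlapped, since tip replicate 6 lay below stalk replicate 4. The call was gained without stalk replicate 4, where the difference was 1.02 (adjusted p from limma = 0.0418), and without tip replicate 6, where it was 0.98 (0.0235). Those are the 2 arrays that made the groups overlap. Under the other 23 of 25 alternatives Hspa5 stayed uncalled, with differences down to 0.57 and adjusted p from limma up to 0.453.

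The remaining genes are given by role. The 8 COPII genes are those of the coat of vesicles leaving the ER, with the Sec23-interacting protein Sec23ip. All 8 had differences above 0, from 0.04 to 0.50, and none was called. Under the other processing choices 6 to 8 of them were above 0. Sec24d, a cargo-binding subunit, was the largest of them at 0.50 ± 0.16 (SE) with an adjusted p from limma of 0.112. Sec23a, the subunit that stimulates GTP hydrolysis by Sar1, had 0.43 ± 0.12 with 0.0718 and no overlap of tip and stalk arrays. That separation of ranges, tip above stalk, held for 4 genes of the set (Copa, Kdelr3, Pdia6 and Sec23a). It held for 2.73% of all genes and for 283 of the 6100 genes in the set's interquartile range of brightness. All 4 disulfide isomerases were above 0 as well, from 0.21 for Pdia4 to 0.60 for Pdia5, the latter with an adjusted p from limma of 0.0517; 3 or 4 of them were above 0 under the other processing choices. The p24 genes stood near 0, with 5 of 9 above it and a median of 0.03. Dnajc3, a co-chaperone of BiP, had the lowest difference of the set, -0.25 ± 0.20 (SE), which was not called.

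**Figure D2:**
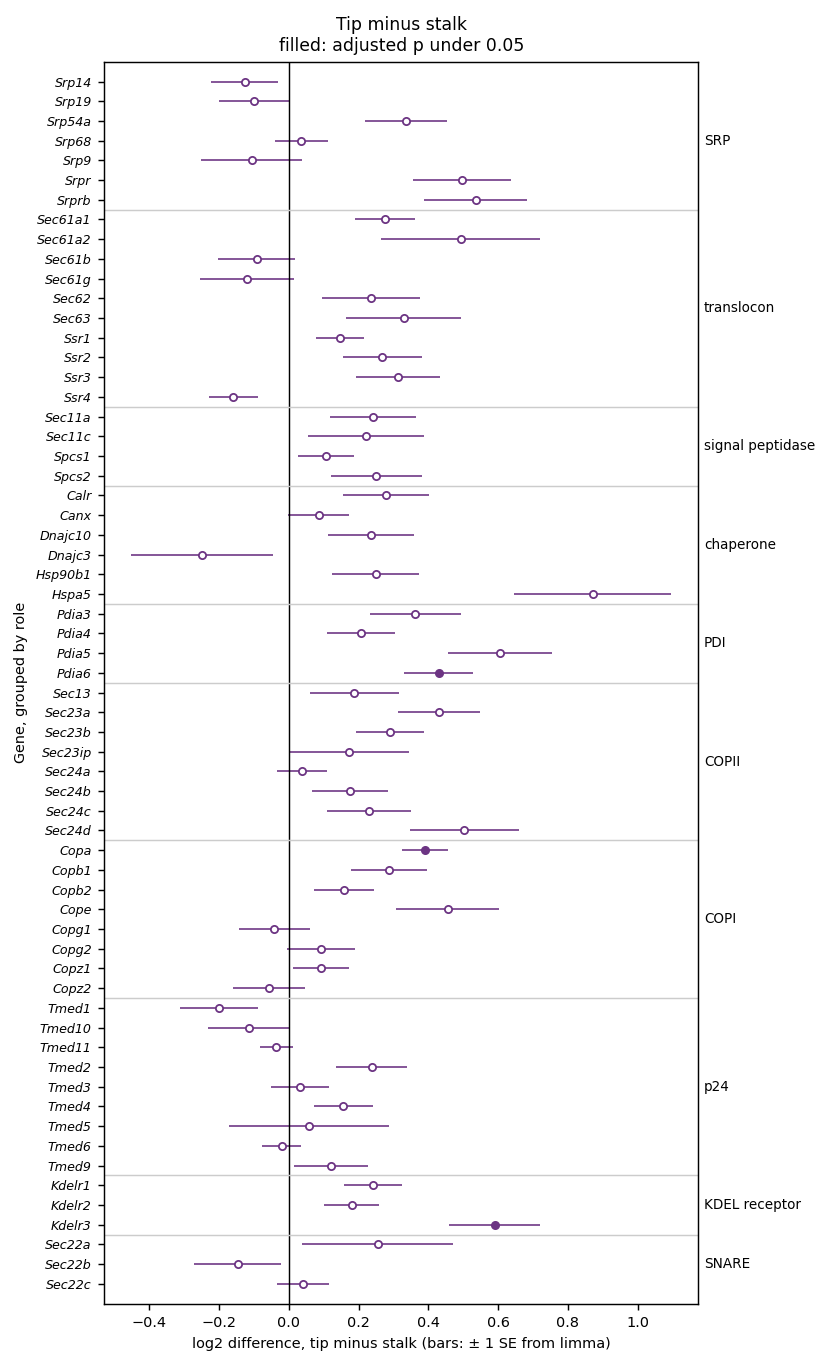
Log2 difference of tip minus stalk for the 62 genes, grouped by role, with bars of 1 SE from limma and filled points for adjusted p under 0.05. Of the 62 points, 48 lie above 0 and only Copa, Kdelr3 and Pdia6 are filled; Hspa5 is the farthest to the right at 0.87.

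None of the set was called between tip and stalk after median centring in place of loess, with the sample channel alone, or with array brightness in the model, while 41, 42 and 44 of the 62 differences were above 0. Copa kept its call when any 1 array was left out, and Kdelr3 lost it under 8 and Pdia6 under 9 of those 13 omissions. All 3 calls were lost with replicate number as a block. With the mean of probes the calls of Copa (0.19, adjusted p from limma = 0.0562) and Pdia6 (0.30, 0.06) were lost. Leaving out 1 array gave 9 calls without tip replicate 6, 7 without stalk replicate 4 (1 of them among the 3), and 1 without stalk replicate 1, 2 or 3 or tip replicate 2, 3 or 5. The share of all genes called, or above 0, under these settings is not given here. These shifts may therefore not be particular to the set. Array brightness and the markers of mural cells moved with this comparison: 7 of 8 pericyte and smooth muscle genes and 2 of 8 endothelial genes were lower in tip than in stalk, and their part in the result was not tested.

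Against the nonvascular retina, 20 of the 62 genes were higher in tip and 5 lower, where 11.1% and 16.8% of all genes were called. In stalk 17 were higher and 15 lower, where 11.3% and 18.6% of all genes were called. The median difference was 0.18 for tip and 0.03 for stalk, and -0.01 and 0.00 over all genes. Both comparisons use the same 3 nonvascular arrays. Among the genes with a symbol in the set's interquartile range of brightness, 1532 of 6100 were higher and 1613 lower in tip, and 1539 and 1794 in stalk. The split of calls depended on the scaling: it was 11 higher and 6 lower in tip and 11 and 16 in stalk after median centring, and 16 and 9 in tip and 11 and 16 in stalk after scale normalisation between arrays. For these settings the share of all genes called is not given here, so the shifts may not be particular to the set. Without nonvascular replicate 3, the array with the high glial markers, 21 were higher and 6 lower in tip and 18 higher and 12 lower in stalk. The share of all genes called without that array is not given here either. The endothelial, pericyte, ganglion cell, glial, erythroid, amacrine, microglia and photoreceptor markers differed between the same groups in the values given above. Their part in the differences of the set was not tested.

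**Figure D3:**
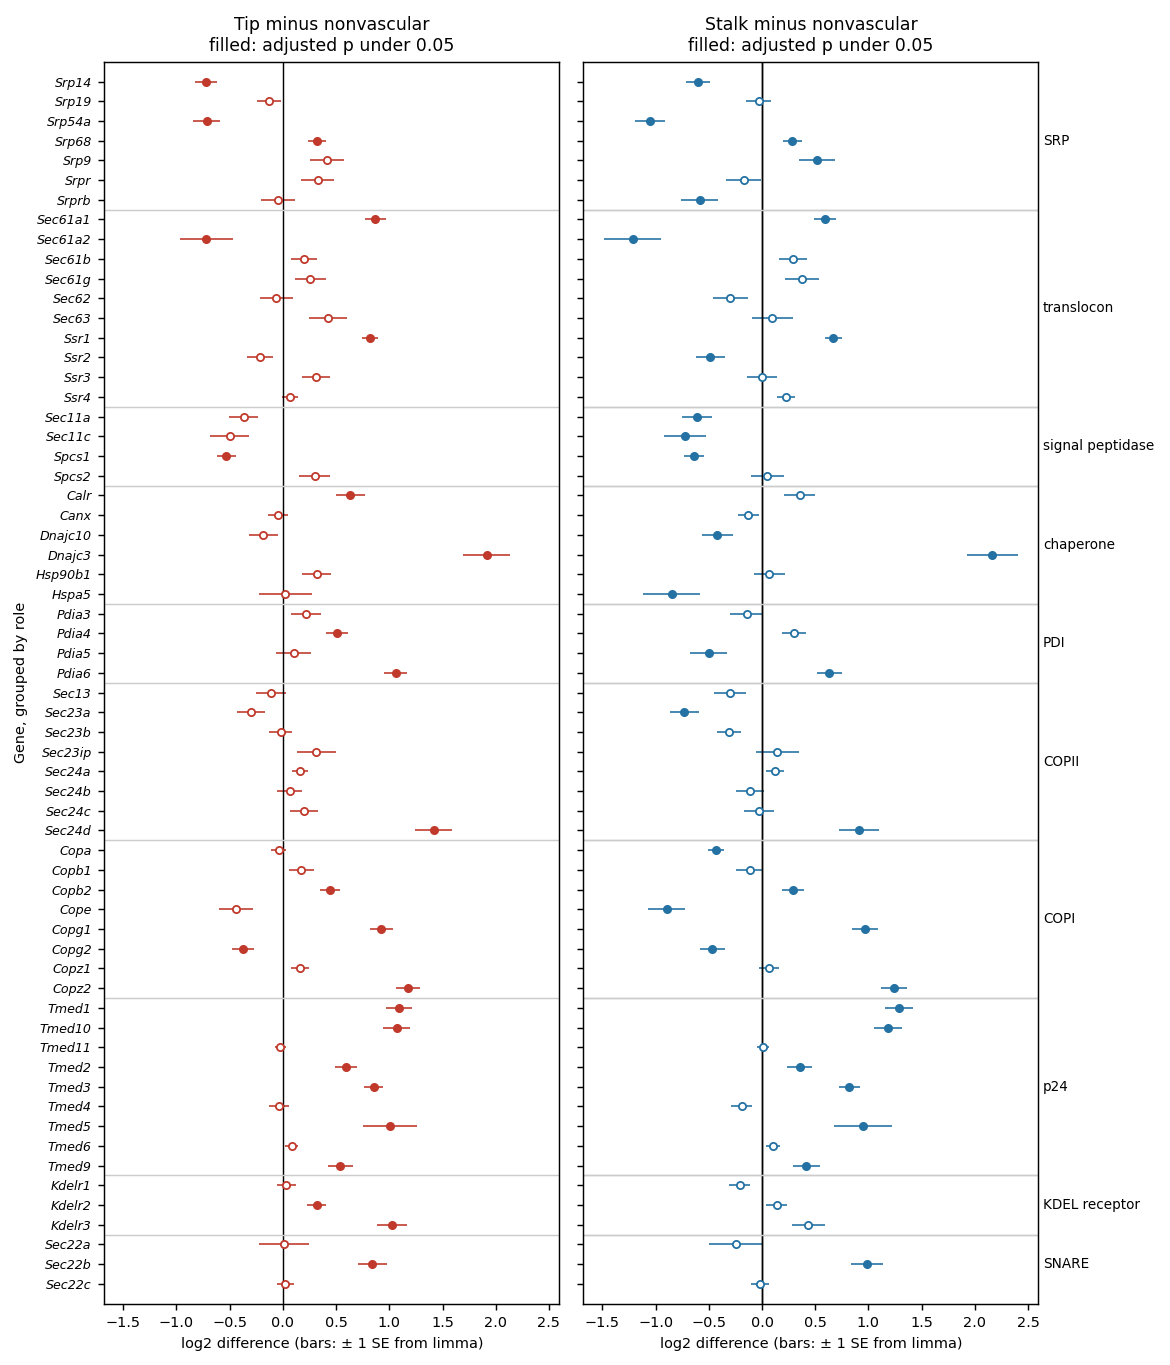
Log2 difference of tip (left) and stalk (right) minus the nonvascular retina for the 62 genes, grouped by role, with bars of 1 SE from limma and filled points for adjusted p under 0.05. Dnajc3 is farthest to the right in both panels (1.91 and 2.16), 6 of 9 p24 genes are filled to the right in both, and Sec61a2 and Srp54a are filled to the left in both.

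The genes of entry into the ER split. Of the 7 genes of the signal recognition particle and its receptor, 1 was higher and 2 lower in tip, and 2 were higher and 3 lower in stalk. Srp14, which with Srp9 slows elongation of the nascent chain, ran from 0.10 to 0.43 on the tip arrays, with a median of 0.21. It was 0.28, 0.30, 0.22 and 0.64 on the stalk arrays and 0.76, 1.03 and 1.08 on the nonvascular arrays. Every vascular array was below every nonvascular one. The difference was -0.72 ± 0.11 (SE) for tip (adjusted p from limma = 0.000158) and -0.60 ± 0.11 for stalk (0.00124). Srp54a, the subunit that binds the signal sequence, was also lower, by -0.72 ± 0.13 and -1.05 ± 0.14 (SE) with adjusted p from limma of 0.000856 and 6.84e-05. Mouse has near-identical Srp54 copies that a probe may not tell apart, and the second, dim Srp54a probe gave 0.03 and 0.09. Srp68, a scaffold protein of the particle, was higher by 0.32 and 0.29, the latter a call lost without any 1 of 4 arrays. Srp9, the partner of Srp14, had 0.41 in tip, not called, and was higher in stalk by 0.52 (adjusted p from limma = 0.0346). Its second probe gave -0.10 and -0.24, and the stalk call was lost with the mean of probes (0.14, adjusted p from limma = 0.443).

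Among the 10 translocon genes, 2 were higher in both vascular groups, Sec61a1 and Ssr1. Ssr1 encodes the alpha subunit of the translocon-associated complex and ran from 0.63 to 0.92 on the tip arrays, with a median of 0.77. It was 0.48, 0.61, 0.67 and 0.76 on the stalk arrays and -0.14, -0.05 and 0.06 on the nonvascular arrays. The vascular arrays lay wholly above the others. The difference was 0.82 ± 0.08 (SE) for tip (adjusted p from limma = 3.57e-06) and 0.67 ± 0.08 for stalk (3.66e-05), and the second Ssr1 probe was called higher in both as well, with 0.69 and 0.48.

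The paralogues of the channel itself went opposite ways. Sec61a1, the main channel subunit, ran from -0.08 to 0.48 on the tip arrays, with a median of 0.24, and was -0.07, 0.07, -0.09 and -0.08 on the stalk arrays and -0.65, -0.71 and -0.55 on the nonvascular arrays. It was higher by 0.87 ± 0.09 (SE) in tip (adjusted p from limma = 1.38e-05) and by 0.59 ± 0.10 in stalk (0.00058), although its dimmer probes gave 0.06 and 0.11 in tip and -0.31 and 0.11 in stalk, and the stalk call was lost with the mean of probes (0.13; adjusted p from limma = 0.278). Sec61a2, the second channel gene, ran from -0.85 to -0.01 on the tip arrays, with a median of -0.36. Its stalk values were -1.34, -0.96, -0.95 and -0.42, and its nonvascular values 0.71, 0.41 and -0.22, the last of which lay within the tip range. It was lower by -0.72 ± 0.25 (SE) in tip (adjusted p from limma = 0.0471) and by -1.21 ± 0.27 in stalk (0.00368). The tip call was lost without any 1 of nonvascular replicates 1 and 2, stalk replicates 2 and 3 and tip replicates 2, 4, 5 and 6 (adjusted p from limma of 0.0588 to 0.226), and the stalk call with array brightness in the model (0.0672). Sec61b and Sec61g, the small subunits, were not called in either comparison.

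Of the 4 signal peptidase genes, 1 was lower in tip and 3 in stalk, and none was higher. Spcs1, a small subunit, was lower in both groups, by -0.53 ± 0.09 (SE) in tip (adjusted p from limma = 0.000452) and -0.64 ± 0.10 in stalk (0.000188). It ran from -0.79 to -0.40 on the tip arrays, with a median of -0.55, and was -0.81, -0.73, -0.65 and -0.46 on the stalk arrays and 0.02, -0.02 and -0.08 on the nonvascular arrays. No vascular array reached the nonvascular ones. The catalytic subunits Sec11a and Sec11c were lower in stalk, by -0.61 ± 0.15 and -0.72 ± 0.20 (SE) with adjusted p from limma of 0.00581 and 0.014, and were not called in tip (0.0584 and 0.0605); the Sec11c call in stalk was lost without nonvascular replicate 1 (adjusted p from limma = 0.0637) and with array brightness in the model (0.265). The second Sec11a probe, nearly as bright, had 0.24 in tip and 0.28 in stalk and was not called, and with the mean of probes the Sec11a call in stalk was lost (-0.17; adjusted p from limma = 0.28). Spcs2, the fourth gene of the enzyme, had 0.30 and 0.05 and was not called.

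**Figure D4:**
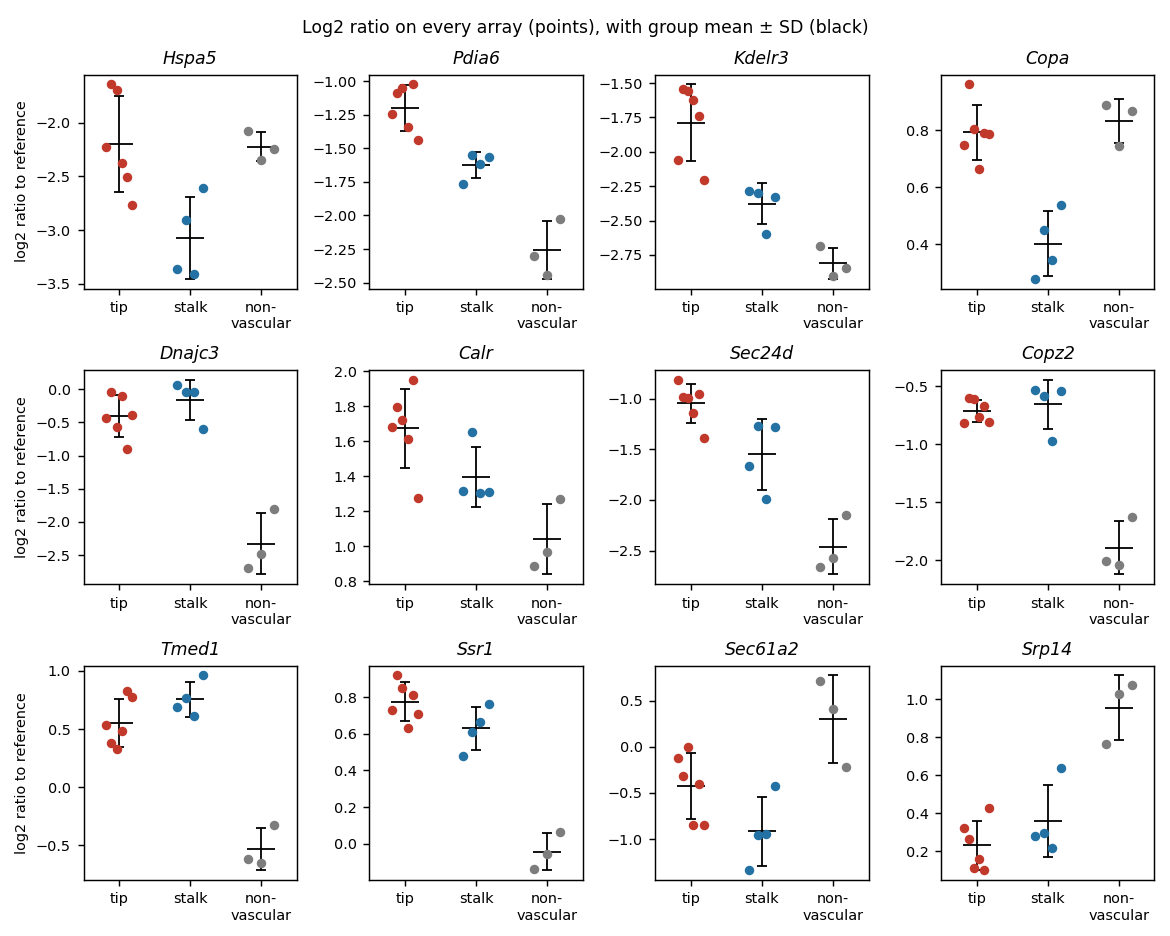
Log2 ratio to the reference on every array for 12 genes, with the group mean and SD in black; each panel has its own axis. Copa, Kdelr3 and Pdia6 separate tip from stalk, Dnajc3, Sec24d, Copz2, Tmed1 and Ssr1 separate both vascular groups from the nonvascular retina, and Srp14 is highest on the nonvascular arrays.

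The chaperones did not move together. Dnajc3, known as p58IPK, had the largest difference of the set. It ran from -0.91 to -0.05 on the tip arrays, with a median of -0.41, and was 0.06, -0.05, -0.04 and -0.60 on the stalk arrays and -2.69, -2.49 and -1.80 on the nonvascular arrays. The lowest vascular array stood well above the highest nonvascular one. The difference was 1.91 ± 0.22 (SE), or 3.77-fold, in tip (adjusted p from limma = 2.37e-05) and 2.16 ± 0.24, or 4.48-fold, in stalk (1.52e-05). All 4 Dnajc3 probes were called higher in both, the others between 0.28 and 1.33 in tip.

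Calr, the soluble lectin chaperone, was higher in tip by 0.63 ± 0.14 (SE; adjusted p from limma = 0.00302) and had 0.36 ± 0.15 in stalk, which was not called (0.0897). It ran from 1.28 to 1.95 on the tip arrays, with a median of 1.70, and was 1.31, 1.65, 1.30 and 1.31 on the stalk arrays and 0.89, 0.97 and 1.27 on the nonvascular arrays. The ranges just failed to meet, and the tip call was lost with median centring (adjusted p from limma = 0.146). Canx, its membrane-bound counterpart, had -0.04 ± 0.09 in tip, where 1 of the 6 spots was left out as an outlier and 1 was saturated, and -0.13 ± 0.10 in stalk. Hspa5 did not separate tip from nonvascular arrays (0.02 ± 0.25) and was lower in stalk by -0.85 ± 0.27 (SE), or 1.80-fold (adjusted p from limma = 0.0285), with no overlap of stalk and nonvascular arrays; that call was lost without any 1 of the nonvascular replicates (adjusted p from limma of 0.0992, 0.0546 and 0.0632) and without stalk replicate 1 or 3, and with array brightness in the model (0.366). Hsp90b1 had 0.32 ± 0.14 in tip and 0.07 ± 0.15 in stalk on its brightest probe, neither of them called, while its other probe gave 1.40 (adjusted p from limma = 1.93e-05) and 1.55 (1.42e-05). Dnajc10, an ER reductase with a J domain, was lower in stalk by -0.42 ± 0.15 (SE; adjusted p from limma = 0.0466), a call lost without any 1 of 9 arrays, among them each nonvascular replicate. Its second probe gave 0.29 in stalk (adjusted p from limma = 0.0551), and the mean of probes -0.06 (0.694). So the 6 genes with the ERSE shown above ranged from -0.04 to 1.91 in tip and from -0.85 to 2.16 in stalk.

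Of the disulfide isomerases, Pdia6 was higher by 1.06 ± 0.11 (SE) in tip (adjusted p from limma = 8.34e-06) and 0.63 ± 0.12 in stalk (0.00107), with all arrays of the 3 groups apart as given above. Its dimmer probes had -0.27 and 0.24 in tip, and in stalk 1 of them was called lower, at -0.68 (adjusted p from limma = 0.00601); the stalk call was lost with the mean of probes (0.05; 0.758). Pdia4 (ERp72) was higher in tip by 0.51 ± 0.11 (SE; adjusted p from limma = 0.0028), a call lost with median centring (0.103) and with scale normalisation between arrays (0.814). Pdia5 was lower in stalk by -0.50 ± 0.18 (SE; adjusted p from limma = 0.0484), but stalk and nonvascular arrays overlapped and the call was lost under 17 of 25 alternatives, 11 of them the omission of 1 array (adjusted p from limma up to 0.185). Pdia3 (ERp57), the isomerase that works with Calr and Canx, had 0.22 and -0.14 and was not called.

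Among COPII genes, 1 of 8 was higher in both groups. Sec24d, which recognises export signals of cargo, ran from -1.39 to -0.81 on the tip arrays, with a median of -0.99. Its stalk values were -1.66, -1.27, -1.99 and -1.28, and its nonvascular values -2.66, -2.58 and -2.15. All vascular arrays were above the nonvascular ones. The difference was 1.42 ± 0.17 (SE), or 2.67-fold, in tip (adjusted p from limma = 3.41e-05) and 0.91 ± 0.19, or 1.88-fold, in stalk (0.002). The other Sec24 genes, Sec24a, Sec24b and Sec24c, lay between 0.06 and 0.20 in tip and between -0.11 and 0.12 in stalk and were not called. Sec23a was lower in stalk by -0.73 ± 0.14 (SE; adjusted p from limma = 0.00122), while its partner isoform Sec23b had -0.31 ± 0.12 (0.0628). Sec13, of the outer cage, had -0.11 and -0.30 and was not called; Sec31a, its partner, was not analysed here because no probe carried its symbol.

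The COPI coat held genes of both directions. Copz2, a zeta subunit, ran from -0.82 to -0.60 on the tip arrays, with a median of -0.72, and was -0.53, -0.58, -0.97 and -0.54 on the stalk arrays and -2.00, -2.04 and -1.62 on the nonvascular arrays. The vascular and nonvascular arrays were far apart, by 1.18 ± 0.11 (SE), or 2.26-fold, for tip (adjusted p from limma = 4.63e-06) and 1.24 ± 0.12, or 2.36-fold, for stalk (5.8e-06). The other zeta gene, Copz1, had 0.16 and 0.07 and was not called. Copg1, a gamma subunit, was higher on its brightest probe, by 0.93 ± 0.11 (SE) in tip (adjusted p from limma = 3.5e-05) and 0.97 ± 0.12 in stalk (4.4e-05), but its 2 dimmer probes were called lower, at -0.72 and -0.65 in tip, so the direction for this gene rests on the probe. Copg2, the second gamma gene, was lower by -0.37 ± 0.11 (adjusted p from limma = 0.0184) and -0.47 ± 0.12 (0.00751), with a second probe called lower in both; the tip call was lost without nonvascular replicate 2 or 3 (adjusted p from limma of 0.0583 and 0.0643). Cope, the epsilon subunit, was lower in stalk by -0.89 ± 0.17 (SE; adjusted p from limma = 0.00151), with -1.14, -0.94, -1.58 and -0.83 on the stalk arrays against -0.06, -0.22 and -0.41. Copa, higher in tip than in stalk, had -0.04 ± 0.07 in tip and was lower in stalk by -0.43 ± 0.08 (adjusted p from limma = 0.000795): its tip and nonvascular levels lay together and its stalk level below both. That stalk call was lost with the mean of probes (-0.14; adjusted p from limma = 0.0778) and with the sample channel alone (-0.29; 0.111), and the second probe gave 0.15.

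The p24 proteins, short membrane proteins that select cargo and help to shape vesicles, differed in 1 direction wherever they were called. Of 9 genes, 6 were higher in tip and 6 in stalk, and none was lower; the 6 were Tmed1, Tmed2, Tmed3, Tmed5, Tmed9 and Tmed10 in both comparisons. Tmed10, one of the abundant members, ran from -0.33 to 0.17 on the tip arrays, with a median of -0.04, and was 0.03, 0.24, -0.11 and 0.12 on the stalk arrays and -1.26, -1.23 and -0.85 on the nonvascular arrays. Tmed1 ran from 0.33 to 0.83 on the tip arrays, with a median of 0.51, and was 0.69, 0.76, 0.61 and 0.96 on the stalk arrays and -0.62, -0.65 and -0.33 on the nonvascular arrays. For both genes every vascular array was above every nonvascular one. Tmed10 differed by 1.07 ± 0.13 (SE) in tip (adjusted p from limma = 2.77e-05) and 1.18 ± 0.14 in stalk (2.12e-05), and Tmed1 by 1.09 ± 0.12 (1.85e-05) and 1.29 ± 0.13 (7.97e-06). The remaining 3 genes, Tmed4, Tmed6 and Tmed11, lay between -0.04 and 0.08 in tip and between -0.19 and 0.10 in stalk. Under the other processing choices 3 to 6 of the 9 were called higher in each comparison, the lowest number after median centring, and none was called lower. Tmed2 lacked 1 stalk spot, and 1 of its other probes was called lower in stalk, at -0.62; its stalk call was lost without any 1 of 7 arrays, and with the mean of probes it had 0.23 in tip (adjusted p from limma = 0.35) and -0.18 in stalk (0.513).

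In the retrieval step, Kdelr3 was higher in tip by 1.02 ± 0.14 (SE), or 2.03-fold (adjusted p from limma = 0.000117), and had 0.43 ± 0.15 in stalk with an adjusted p from limma of 0.0517, although all 4 stalk arrays lay above the nonvascular ones. Kdelr2 was higher in tip by 0.32 ± 0.09 (0.0159), with 0.92 on its second probe and a call lost without nonvascular replicate 1 (0.104) and with median centring (0.775), and Kdelr1 had 0.03 ± 0.09 and was not called. Sec22b, the SNARE that fuses ER and Golgi carriers, was higher by 0.84 ± 0.14 (SE) in tip (adjusted p from limma = 0.000401) and 0.99 ± 0.15 in stalk (0.000194), from -0.89, -1.17 and -0.75 on the nonvascular arrays to between -0.45 and 0.28 on the vascular ones. Its second probe gave 0.08 and -0.06. The related Sec22a and Sec22c were not called.

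Probes of 1 gene often disagreed, which limits what a single gene shows here. Of the 27 genes with more than 1 probe above background, all probes had 1 sign in 9 for tip minus stalk, in 13 for tip minus nonvascular and in 10 for stalk minus nonvascular. Among the 25 genes called in tip minus nonvascular, 11 had another probe: it was called the same way for 4 (Copg2, Dnajc3, Kdelr2 and Ssr1), the opposite way for Copg1, and had the opposite sign for 4. Among the 32 called in stalk minus nonvascular, 14 had another probe, which was called the same way for 4 and the opposite way for 4 (Copg1, Pdia6, Srprb and Tmed2, the last of these with a probe of each kind), and had the opposite sign for 12.

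**Figure D5:**
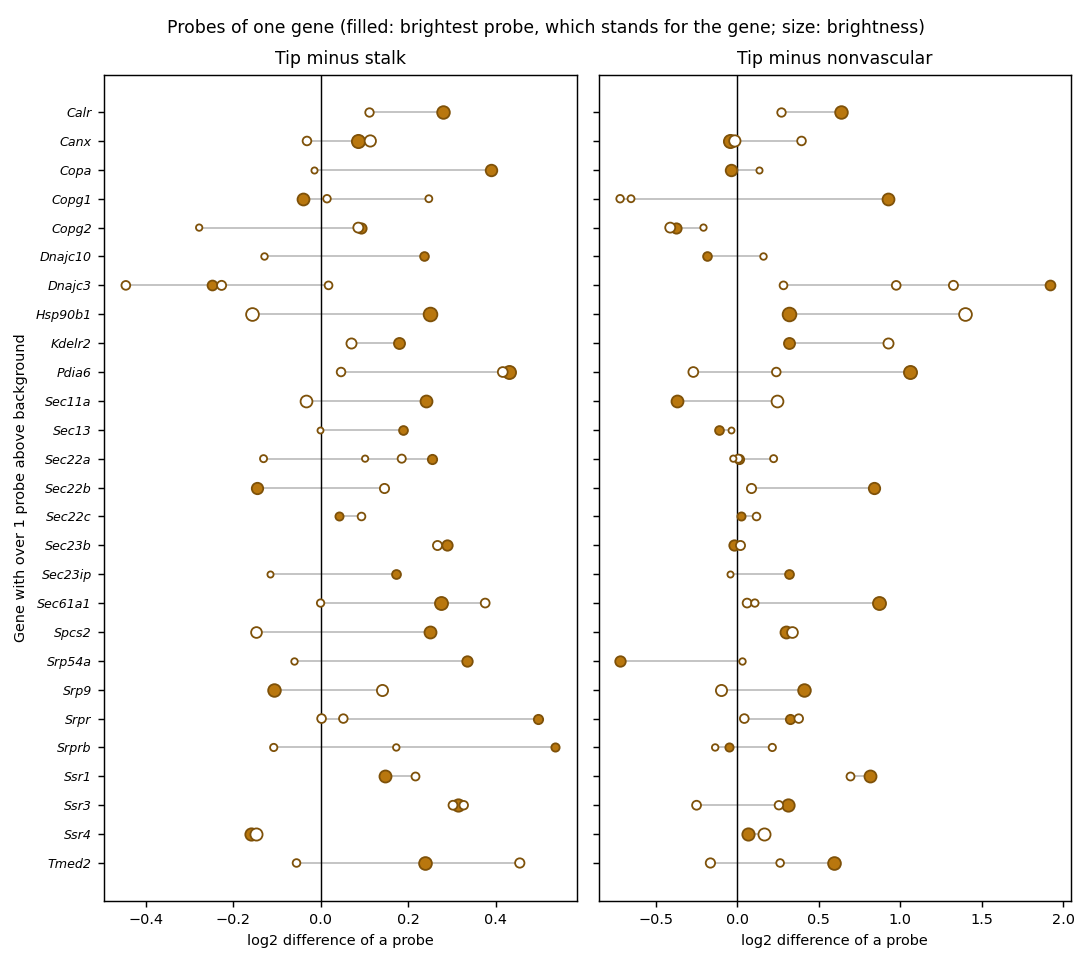
Log2 difference of every probe above background for the 27 genes with more than 1 such probe, for tip minus stalk (left) and tip minus nonvascular (right); the filled point is the brightest probe, which stands for the gene, and point size grows with brightness. The probes of Dnajc3 and Ssr1 lie on one side of 0 on the right, while those of Copg1 span from -0.72 to 0.93.

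The other genes of the pathway were read from a list of enzymes, cargo receptors, coat regulators and tethers. Of 54 tested, limma's adjusted p called 4 higher in tip than in stalk and 0 lower, where 1.47% and 1.33% of all genes were called. At an unadjusted p under 0.05, 15 were higher and 0 lower, where 10.2% and 7.8% of all genes were. The 4 were Fkbp14, a prolyl isomerase for collagen, with 0.73 ± 0.14 (SE; adjusted p from limma = 0.0192), the Golgi GTPase Arf4 with 0.63 ± 0.11 (0.0111), the Golgi stacking protein Gorasp2 with 0.30 ± 0.06 (0.0257), and Tfg, which organises COPII exit sites, with 0.29 ± 0.06 (0.0267). The median over the list was 0.11, and 0.00 over all genes. Of the 54 differences, 41 were above 0, against 51% of all genes. All 4 calls were lost with median centring and with array brightness in the model, although with median centring the differences of Arf4 (0.60) and Fkbp14 (0.78) were about as large. The calls of Fkbp14, Gorasp2 and Tfg were also lost with the sample channel alone. Fkbp14 lost its call with replicate number as a block, and Gorasp2 and Tfg lost theirs with the Feature Extraction log ratios. Arf4 kept its call when any 1 array was left out, while Gorasp2 lost it without any 1 of 7 arrays, Tfg of 6 and Fkbp14 of 2 (stalk replicates 1 and 3). Against the nonvascular retina 25 were higher and 2 lower in tip, and 22 higher and 7 lower in stalk. Over all genes, 11.1% were higher and 16.8% lower in tip, and 11.3% and 18.6% in stalk. Fkbp10, a collagen chaperone, was higher by 3.50 ± 0.30 (SE) in tip (adjusted p from limma = 1.73e-06) and 3.75 ± 0.32 in stalk (1.79e-06), far more than any gene of the 62. Erp44, which retains unassembled cargo, was higher in both, by 1.13 ± 0.11 in stalk. Rcn3, a calcium-binding ER protein, was also higher in both, by 2.42 in tip (adjusted p from limma = 1.18e-05) and 2.39 ± 0.28 in stalk. The GTPases that start the COPII coat went opposite ways: Sar1a was higher by 0.85 ± 0.09 (adjusted p from limma = 6.8e-06) and Sar1b lower by -1.25 ± 0.14 (2.39e-05) in tip, and Sar1a had 0.64 and Sar1b -1.49 in stalk. Fkbp2 was lower in both, by -0.60 and -0.72. Arf4 and Tfg, higher in tip than in stalk, were lower in stalk than in the nonvascular retina, by -0.65 and -0.45.

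Genes of the unfolded protein response were read the same way. Of 30 tested, limma's adjusted p called 4 higher in tip than in stalk and 0 lower, where 1.47% and 1.33% of all genes were called. At an unadjusted p under 0.05, 11 were higher and 1 lower, where 10.2% and 7.8% of all genes were. The 4 were Syvn1 (0.41 ± 0.07; adjusted p from limma = 0.00812), the ubiquitin ligase of ER-associated degradation, Sdf2l1 (0.46 ± 0.09; 0.0138), a partner of BiP, Trib3 (0.45 ± 0.09; 0.0207), a pseudokinase induced by ER stress, and Chac1 (0.57 ± 0.12; 0.0252), a glutathione-degrading enzyme. All 4 calls were lost with array brightness in the model, and those of Syvn1, Sdf2l1 and Trib3 with median centring and with the sample channel alone. Syvn1 also lost its call with the mean of probes (0.16, adjusted p from limma = 0.0629). So did Trib3 with scale normalisation between arrays and Chac1 with replicate number as a block. Leaving out 1 array ended the call of Trib3 and of Chac1 in 3 cases each and of Sdf2l1 in 1, and that of Syvn1 in none. Against the nonvascular retina 15 were higher and 5 lower in tip, and 12 higher and 5 lower in stalk. The shares called over all genes were 11.1% and 16.8% in tip and 11.3% and 18.6% in stalk. Creb3l2, an ER-anchored transcription factor, was higher by 1.54 ± 0.15 (SE) in tip (adjusted p from limma = 6.01e-06) and 1.06 ± 0.16 in stalk (0.000261). Creld2 had 1.11 and 0.68, and Derl2, of the degradation channel, 0.93 and 1.00, all called. Sil1, an exchange factor of BiP, was higher in stalk by 0.78 and in tip by 0.41 (adjusted p from limma = 0.0124). Its tip call was lost under 3 of 25 alternatives. Asns, which makes asparagine, was lower by -1.70 ± 0.17 in tip (adjusted p from limma = 7.56e-06) and -1.86 ± 0.19 in stalk (6.6e-06). Chac1 was lower in both as well, by -0.47 (not called without nonvascular replicate 1 or 2) and -1.05, as were Edem2 (-0.61 and -0.71), Atf6b (-0.46, not called without nonvascular replicate 1, and -0.84) and Creb3 (-0.40 and -0.51).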

How the data were processed

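Each of the 13 samples was hybridised on a 2-colour array against 1 reference RNA. The deposited scanner files, made by the authors with Agilent Feature Extraction 8.5.1.1 per the submitters' processing notes, hold linear intensity values per spot and a log10 ratio of red over green. The deposited series table holds a linear ratio per probe; its scale was read from its match to the scanner files, and it was used as an alternative. RNA was extracted with a PicoPure kit and amplified with a low-input kit, per the labels' protocols.

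Here, mean and background intensity were corrected by normexp (offset 50), normalised by loess within each array, and averaged over spots of a probe, outlier spots left out. The brightest probe stood for a gene, and genes well above background on at least 3 of 13 arrays were tested in 1 limma fit of 3 group means (limma 3.58.1, R 4.3.3), which was tested on simulated data. Spots count no molecules, so the number of arrays limits precision. Of 41174 probes, 22072 were named by their own RefSeq accession, 135 by another accession, and the rest by description; 16768 had no symbol. Alternatives were no background subtraction, median centring, Feature Extraction log ratios, the deposited table, the red channel alone, the mean of probes, other filters, only the compared groups, array brightness, scaling between arrays, a replicate block and leaving out each array.

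Named genes were 25 fixed members, each member called in tip minus stalk, the 6 largest calls per direction against nonvascular, and up to 4 genes per direction of the other lists; other names were chosen after their values were seen. Members and lists were chosen with earlier results of these data known.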

Additional observations from a re-analysis of the deposited data

Results flagged for a closer look

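In 66 groups of 4 to 6 arrays (the named genes of the set in tip and in stalk), 7 held an array far from the others by Dixon's test, where chance gives about 1 in 20; all 7 were in stalk, the smaller group. Stalk replicate 4 stood apart for Dnajc3 (-0.604, the others from -0.0512 to 0.0551), Pdia3 (-0.217, against -0.93 to -0.902) and Srp54a (-2.11, against -2.45 to -2.42). Stalk replicate 2 stood apart for Calr (1.65, against 1.3 to 1.31) and Sec61a1 (0.0738, against -0.0857 to -0.0718). Stalk replicate 3 stood apart for Kdelr3 (-2.6, against -2.33 to -2.28) and Copz2 (-0.971, against -0.582 to -0.527).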

How the results depend on the processing

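Between tip and stalk, the number of genes of the set called higher was 3. It became 0 with median centring, the red channel alone, array brightness in the model or the replicate block, and 1 (Kdelr3) with the mean of probes. Leaving out 1 array gave 1 to 9, and none was called lower under any of the 25 alternatives. The median of 0.196 ran from 0.142 to 0.247 when 1 array was left out and from 0.0787 to 0.285 over all alternatives. For tip minus nonvascular, 11 genes were higher with median centring, and lower calls were 3 with Feature Extraction log ratios, the deposited table or the replicate block and 9 with scaling between arrays; without 1 array the counts were 19 to 22 and 3 to 6, and the median 0.152 to 0.205. The median was 0.044 with median centring and 0.0449 with scaling. For stalk minus nonvascular, 11 were higher with median centring or scaling, lower calls were 9 with the red channel alone and 6 with array brightness, and the median reversed to -0.0985 and -0.0685 with median centring and scaling; without 1 array the counts were 12 to 19 and 10 to 17, and the median -0.04 to 0.0757. Tmed2, a called gene outside the naming rule above, changed sign with the mean of probes, from 0.35 to -0.18 for stalk minus nonvascular. Among called genes named by that rule, Copg1 reversed with the mean of probes, at -0.15 for tip and -0.22 for stalk minus nonvascular. Trib3 reversed with scaling, at -0.36 for tip minus nonvascular. Over the named genes, 3792 comparisons with an alternative kept direction and side of the threshold, 191 lost a call, 58 gained one, those 3 reversed, and 81, in 25 genes and called under neither setting, changed sign (for tip minus stalk, Canx from 0.08 to -0.11 with median centring and Sec13 from 0.19 to -0.07 with the red channel alone). The causes were not tested, and the share of all genes called under each alternative is not given here. Whether equal replicate numbers pair the samples is not known. Correlations of deviations between arrays of equal number ran from -0.144 to 0.0845 over 10 pairs. With so few arrays in a group, these values cannot exclude pairing. A slide or scan-day block was not run, since each array was its own slide and the second scan day held 1 array. Where probes of a gene disagree, a call rests on the chosen probe.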
